A study of Rattus norvegicus with 8 samples.

Results

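Pigu encodes a subunit of the GPI transamidase, the enzyme complex that attaches glycosylphosphatidylinositol (GPI) anchors to proteins. It is described here in rat liver together with 7 further genes of GPI anchor synthesis: Pigk, Pigs, Pigt, Gpaa1, Piga, Pigm and Pigq. Members were taken as every probe set, a group of short array probes directed at 1 transcript, whose single platform gene symbol was one of these names. This gave 10 probe sets for 7 genes, of 31042 probe sets and 14217 named genes on the array. Gpaa1 had no such probe set and was not analysed here. Pigu was chosen by its signal difference between the groups in these same arrays, so its values are a description and carry no test. The other members were chosen for their role in the pathway, with results of these data known.

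Liver total RNA was measured in Sprague-Dawley rats, an outbred strain, all male and aged 8 weeks. The control group drank sterilized distilled water for 4 weeks. The hydrogen water group drank water with 0.7 mM dissolved molecular hydrogen over the same time. Both groups were housed alike and ate the same commercial diet without restriction. The study kept 8 rats per group, and 4 arrays per group were analysed here. Neither the animal behind an array nor any pooling of RNA is stated in the labels, and p-values measure only how far these arrays spread.

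A GPI anchor is a glycolipid built step by step on phosphatidylinositol in the membrane of the endoplasmic reticulum, by adding glucosamine, mannoses and ethanolamine phosphates. The transamidase then cuts a signal from the end of a newly made protein and joins the protein to the finished anchor, which holds it at the outer face of the cell. Liver cells carry anchored enzymes, complement inhibitors, receptors and heparan sulfate proteoglycans of this kind, and the liver also secretes a phospholipase that can cleave the anchor.

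The arrays had no common scale, and the control arrays tended to be brighter. The log2 of the 2% trimmed mean signal differed by −0.33 between the group means (exact permutation test, two-sided, p = 0.114). The 3′ to 5′ signal ratio of Gapdh, which rises as RNA degrades, differed by 0.16 on the log2 scale (exact permutation test, two-sided, p = 0.0571, where 0.0286 is the smallest p that 70 arrangements allow). Values below are therefore quantile-normalized signals on the log2(signal + 2.05) scale, unless named as deposited signals, and changes are hydrogen water minus control on that scale, with the SE of the limma fit. Of 15521 probe sets tested, 128 (0.825%) passed an adjusted p of 0.05, and the median change of all tested probe sets was −0.0011. Without normalization that median was −0.33, many of the small positive changes given below then turned negative, and negative ones such as that of Pigk became larger. The 5 measured hepatocyte markers lay at or above the 99.8th percentile of signal. Over 7 cell type lists 22 markers were tested, of which limma called none and 2 reached an unadjusted p under 0.05, against 12.5% of all tested probe sets. Both were among the 4 endothelial markers tested, whose summed signal ran from 1778 to 2082 on the control arrays and from 2004 to 2259 with hydrogen water, with overlap. The summed signal of stellate and fibroblast markers leaned lower with hydrogen water, from 258 to 311 on the control arrays against 212 to 260. That of cholangiocyte markers did too (122 to 187 against 99.7 to 133), while that of erythroid markers leaned higher (2849 to 4288 against 3562 to 5584). Of the measured markers, only 3 of 5 for stellate cells and fibroblasts and 2 of 3 for cholangiocytes were bright enough to be tested. Each of the sums above overlapped between groups. The part of these cell types in the results below was not tested. In liver tissue, fewer cells of a type and less RNA per cell cannot be told apart.

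Pigu signal was 2.28-fold higher in livers of rats given hydrogen water. PIGU is a membrane-embedded subunit thought to help the transamidase bind the lipid anchor. The gene lies on chromosome 3 from 164245011 to 164341444 in the rat assembly GRCr8, and 1 probe set, 1374357_at, represents it. On the 4 control arrays its log2 signal was 7.44, 7.25, 6.96 and 7.04. On the 4 hydrogen water arrays it was 8.39, 8.47, 8.33 and 8.24. The groups did not overlap, and the lowest hydrogen water array lay well above control array 1, the brightest control for this gene. The means were 7.17 ± 0.22 and 8.36 ± 0.10 (SD, n = 4 each), a change of 1.19 ± 0.12 (SE). By size this was the rise of rank 38 among the 15521 tested probe sets. Groups that do not overlap were found at 7.48% of tested probe sets, and at 3.85% with hydrogen water higher.

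The difference in Pigu was also present in the signals as deposited, before any scaling. They were 218, 139, 156 and 133 on the control arrays and 255, 333, 259 and 299 on the hydrogen water arrays. The 2% trimmed mean signal ran from 80.3 to 103 on the hydrogen water arrays and from 94.5 to 132 on the control arrays, with overlap. With array brightness as a covariate the change was 1.17 ± 0.17 (SE), and with the Gapdh ratio as a covariate it was 1.15 ± 0.17. Leaving out each array in turn gave changes from 1.11 to 1.28. These values rest on the arrays on which Pigu was chosen and carry no test. The part of brightness and RNA quality in the difference was not tested.

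**Figure D1:**
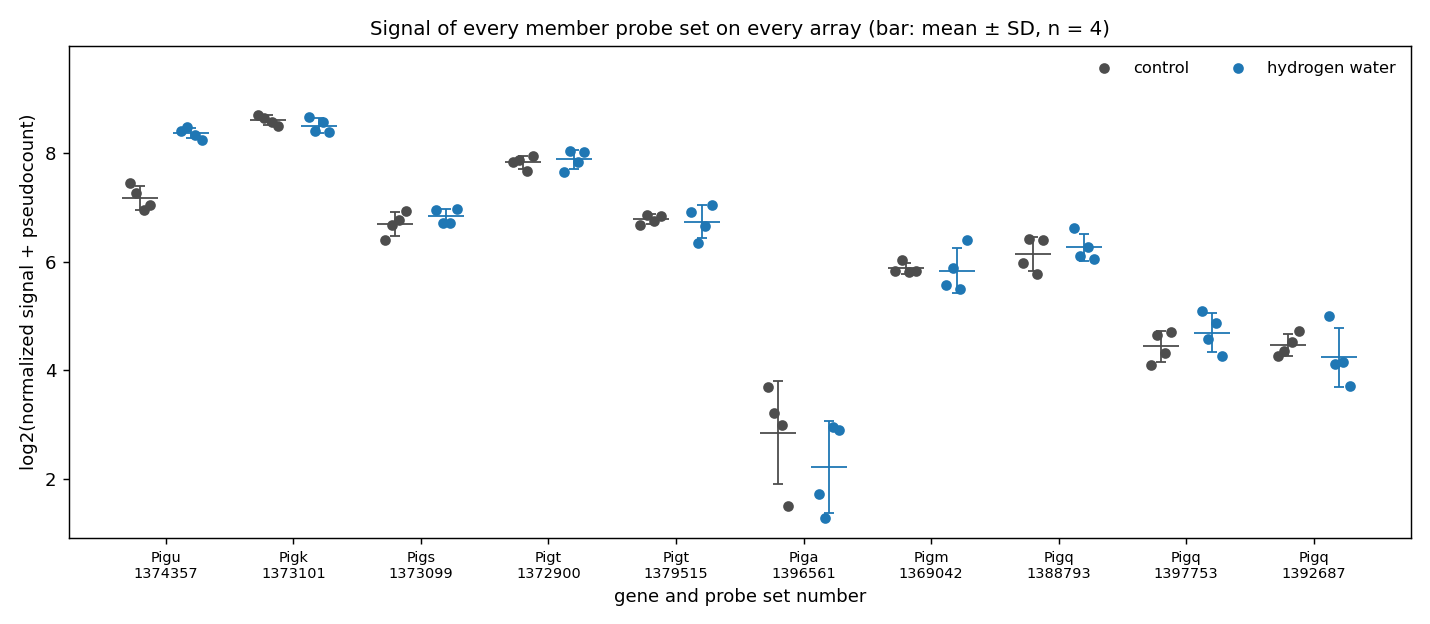
Log2(normalized signal + pseudocount) of every member probe set (x axis, gene and probe set number) on every array, controls in grey and hydrogen water in blue, with bars for mean ± SD of 4 arrays. Pigu separates the groups, at 6.96 to 7.44 against 8.24 to 8.47, and the other 9 probe sets overlap.

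None of the 7 tested probe sets of the other members passed in limma, against 0.825% of all tested probe sets, and 0 had an unadjusted p under 0.05, against 12.5%. Their changes ran from −0.10 to 0.25 and their adjusted p-values from 0.756 to 0.966. The upper limits of their 95% intervals ran from 0.11 to 0.79, and the lowest of the lower limits was −0.47, at Pigm. A missed threshold does not show that the groups were equal. It leaves room for changes within these intervals.

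Pigk encodes the catalytic subunit, a cysteine protease relative that cleaves the signal peptide from the protein to be anchored. Its gene lies on chromosome 2 from 244289928 to 244375394. The log2 signal of 1373101_at was 8.70, 8.65, 8.56 and 8.49 on the control arrays and 8.66, 8.40, 8.56 and 8.38 on the hydrogen water arrays. The groups overlapped through hydrogen water arrays 1 and 3, and the change was −0.10 ± 0.10 (SE; limma adjusted p = 0.758). In the deposited signals every hydrogen water array, at 308 to 331, lay below every control array, at 359 to 524. That separation was absent after normalization.

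**Figure D2:**
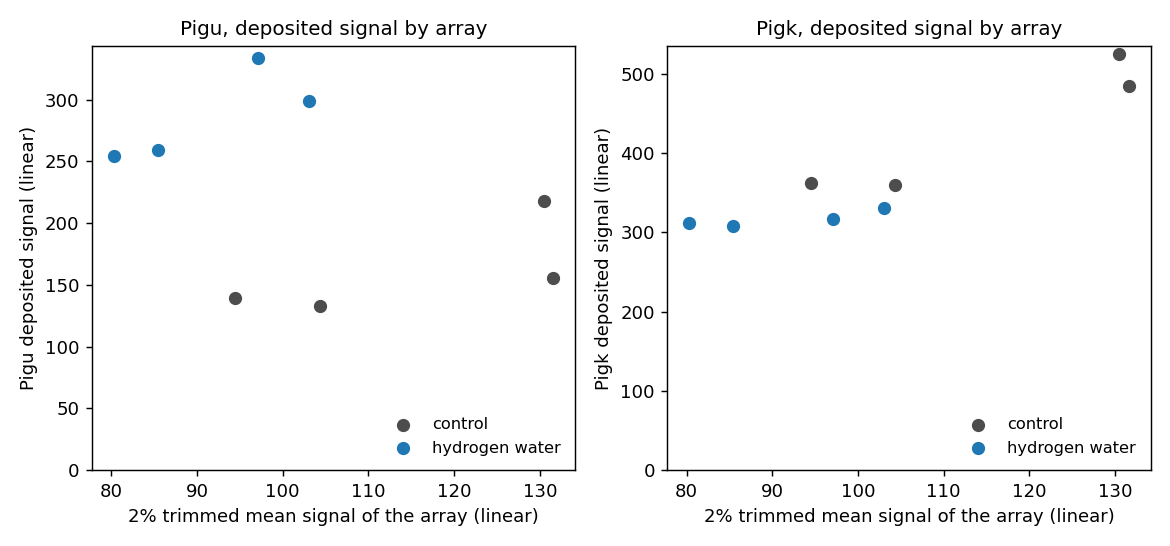
Deposited signal of Pigu (left) and Pigk (right), linear scale from 0, against the 2% trimmed mean signal of each array, controls in grey and hydrogen water in blue. Pigk is lower on the 4 hydrogen water arrays (308 to 331) than on the 4 controls (359 to 524), and Pigu is higher (255 to 333 against 133 to 218). The 2 brightest arrays are controls.

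Pigt encodes the subunit around which the transamidase is assembled. It lies on chromosome 3 from 173647104 to 173656269 and had 2 probe sets. At 1372900_at the log2 signal was 7.82, 7.87, 7.66 and 7.95 on the control arrays and 7.65, 8.03, 7.84 and 8.02 with hydrogen water. At 1379515_at it was 6.68, 6.87, 6.75 and 6.84 on the control arrays and 6.91, 6.35, 6.65 and 7.03 with hydrogen water. Both probe sets overlapped between groups, with changes of 0.06 ± 0.11 and −0.05 ± 0.15 (SE). They disagreed on single arrays: hydrogen water array 2 was the highest of its group at the one and the lowest at the other. The sign of 1372900_at turned without normalization and with median centring.

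Pigs encodes another structural subunit and lies on chromosome 10 from 63720568 to 63735255. The log2 signal of 1373099_at was 6.39, 6.67, 6.77 and 6.93 on the control arrays and 6.94, 6.71, 6.71 and 6.96 with hydrogen water. Control array 1 was the lowest of all 8 arrays here and the highest control for Pigu. The change of Pigs was 0.14 ± 0.14 (SE; limma adjusted p = 0.756), and it turned negative without normalization.

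Within each array, Pigu was set against the mean log2 signal of the 4 tested probe sets of Pigk, Pigs and Pigt. Because probe sets differ in brightness, only the change in this difference is of interest. It was 0.05, −0.26, −0.48 and −0.51 on the control arrays and 0.85, 1.10, 0.90 and 0.65 on the hydrogen water arrays. The shift was 1.18 ± 0.16 (SE over arrays), while the mean of the other subunits shifted by 0.01. This is a description, since Pigu was chosen for its difference.

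The members that build the anchor were Piga, Pigq and Pigm. PIGA is the catalytic subunit of the enzyme that starts the pathway by adding N-acetylglucosamine to phosphatidylinositol, and somatic mutation of its gene in blood stem cells causes paroxysmal nocturnal haemoglobinuria. Piga lies on chromosome X from 33672832 to 33687747. The only probe set, 1396561_x_at, whose suffix marks probes that can bind other transcripts, lay at the 18.3th percentile of signal and was not tested. Its deposited signals were 13.4, 6.54, 6.66 and 0.729 on the control arrays and 1.25, 0.361, 5.17 and 5.52 with hydrogen water. The groups overlapped, and with signals this low, which cannot be set apart from background here, the arrays give no usable comparison for Piga.

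PIGQ belongs to the same enzyme complex. Pigq lies on chromosome 10 from 15447080 to 15463088 and had 3 probe sets of unequal brightness. The brightest, 1388793_at, had log2 signals of 5.97, 6.41, 5.77 and 6.39 on the control arrays and 6.61, 6.10, 6.27 and 6.06 with hydrogen water, a change of 0.12 ± 0.18 (SE). The next, 1397753_at, had 4.10, 4.65, 4.32 and 4.71 against 5.08, 4.57, 4.87 and 4.26, a change of 0.25 ± 0.24. The third, 1392687_at, fell just under the filter on mean signal and was not tested. It ran from 4.26 to 4.73 on the control arrays and from 3.71 to 4.99 with hydrogen water, with a mean difference of −0.23 ± 0.31. All 3 overlapped between groups, and hydrogen water array 1 was the highest of the 8 arrays at each. Both tested probe sets turned negative without normalization and with array brightness as a covariate.

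PIGM adds the first mannose to the growing anchor. Pigm lies on chromosome 13 from 87370693 to 87374390. The log2 signal of 1369042_at was 5.83, 6.03, 5.81 and 5.83 on the control arrays and 5.56, 5.88, 5.50 and 6.40 with hydrogen water. The hydrogen water arrays lay on both sides of the controls, with an SD of 0.41 against 0.10, and the change was −0.04 ± 0.19 (SE; limma adjusted p = 0.966). Its sign turned with array weights and with array brightness as a covariate, and also when control array 2 or hydrogen water array 1 or 3 was left out.

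The rest of the pathway was read from a list of 37 gene symbols for GPI synthesis, anchor remodelling, transport and release. The list includes former symbols of some genes. Of these symbols 27 had a probe set and 26 were tested. None passed in limma in either direction, against 0.825% of all tested probe sets, and 1 of 34 tested probe sets (2.94%), at Tmed2, had an unadjusted p under 0.05, against 12.5% of all. The median change was 0.01, with 13 genes higher and 13 lower, and the changes of the genes, each at its brightest probe set, ran from −0.29 to 0.34. Groups did not overlap at 2 of 34 tested probe sets (5.88%), against 7.48% of all.

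**Figure D3:**
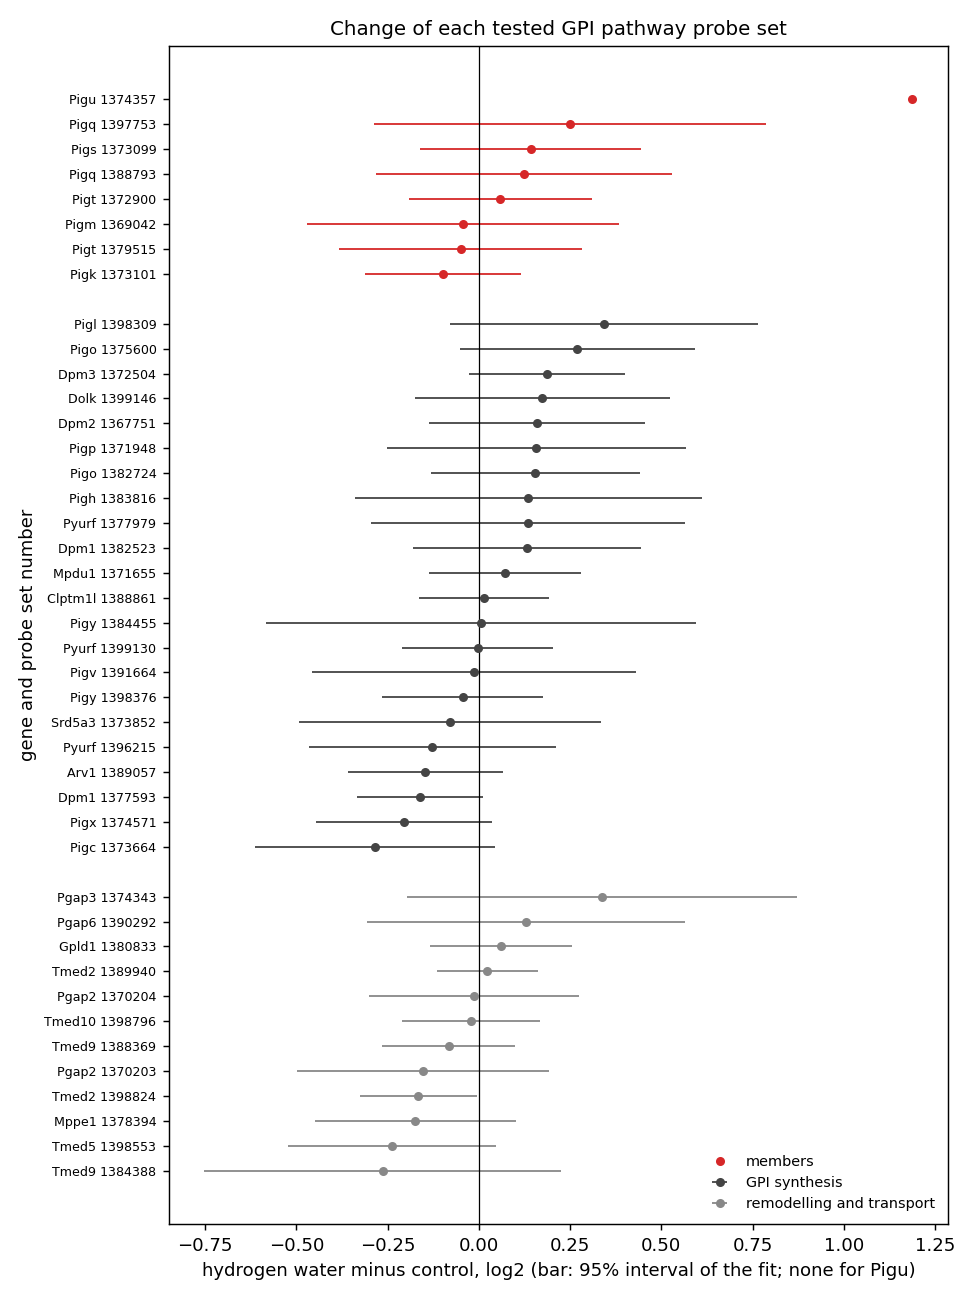
Change of each tested probe set (rows, gene and probe set number) in log2, hydrogen water minus control, with the 95% interval of the limma fit except for Pigu, which was chosen by its change and is drawn as a point: members in red, other synthesis genes in dark grey, remodelling and transport genes in light grey. Pigu is at 1.19, and the tested probe sets of the other members lie between −0.10 and 0.25.

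The 4 pathway genes with the smallest p were Tmed2, Dpm1, Pigc and Dpm3. Tmed2 encodes a p24 cargo receptor that carries anchored proteins from the endoplasmic reticulum to the Golgi. At 1398824_at its log2 signal was 10.05, 10.04, 10.25 and 10.15 on the control arrays and 9.99, 9.93, 9.92 and 9.98 with hydrogen water. The groups did not overlap, but the change was small, −0.17 ± 0.07 (SE; limma adjusted p = 0.384), and the other Tmed2 probe set, 1389940_at, differed by 0.02 ± 0.06 and turned negative without normalization and with median centring.

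Dpm1 and Dpm3 encode subunits of the synthase that makes dolichol phosphate mannose, the donor of the mannoses in the anchor and in N-glycans. Dpm1 differed by −0.16 ± 0.08 (SE) at 1377593_at and by 0.13 ± 0.14 at 1382523_at, so its tested probe sets pointed in opposite directions, except without normalization, where both were negative. Dpm3 differed by 0.19 ± 0.10, with hydrogen water arrays at 8.87, 8.61, 8.97 and 8.65 and controls between 8.58 and 8.62, and turned negative without normalization. Pigc, a partner of PIGA in the starting enzyme, differed by −0.29 ± 0.15, from 8.18, 8.20, 7.96 and 8.53 on the control arrays to 8.20, 8.06, 7.63 and 7.85 with hydrogen water. The change of Pigc was −0.63 without normalization and −0.57 with the Gapdh ratio as a covariate, and passed in neither. None of the 3 genes passed, with limma adjusted p-values from 0.435 to 0.788.

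Oligosaccharyltransferase, another membrane complex of the endoplasmic reticulum that modifies new proteins, was set beside the transamidase. All 12 listed genes were tested, with a median change of 0.03. Limma called 0 of their 14 probe sets, against 0.825% of all tested, and an unadjusted p under 0.05 was found at 0, against 12.5%. The smallest p-values belonged to Tusc3, at −0.32 ± 0.27 (SE), and Magt1, at 0.09 ± 0.08 but negative without normalization and with the brightness covariate, which encode alternative oxidoreductase subunits.

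Genes for proteins that receive the anchor were read from a broad list of 67 gene symbols, which includes former symbols. Some of the listed proteins carry the anchor only in part of their isoforms or may lack it. Of these symbols 57 had a probe set and 21 were bright enough to be tested. None passed in limma in either direction. An unadjusted p under 0.05 was found at 7 of 25 tested probe sets (28.0%), against 12.5% of all tested, and the groups did not overlap at 3 of 25 (12.0%), against 7.48%. The median change was 0.04, with 13 genes higher and 8 lower. The smallest p-values were those of Efna5, Efna1, Cd14 and Cd48, and these did not share a direction.

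Efna5 and Efna1 encode ephrins, anchored ligands of Eph receptor tyrosine kinases. Efna5 had log2 signals of 6.06, 6.75, 5.76 and 5.70 on the control arrays and 5.11, 5.21, 4.28 and 4.95 with hydrogen water at 1369594_at. The groups did not overlap, and the change was −1.19 ± 0.27 (SE; limma adjusted p = 0.0724). At 1375647_at the groups overlapped, since hydrogen water array 2 was the highest of all 8, and Efna5 differed by −0.40 ± 0.23, which moved to −0.76 without normalization and to −0.035 with array brightness as a covariate.

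Efna1 had log2 signals of 7.08, 7.17, 6.89 and 7.47 on the control arrays and 7.73, 8.02, 7.60 and 8.37 with hydrogen water at 1398273_at. The groups did not overlap, and the change was 0.78 ± 0.18 (SE; limma adjusted p = 0.0737). At 1372844_at Efna1 differed by 0.83 ± 0.23 and the groups overlapped through control array 4, at 8.11. Efna5 passed at 1369594_at in 5 of 21 other settings and Efna1 at 1398273_at in 2 of 22, so neither is reported as changed.

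Cd14, the anchored co-receptor for bacterial lipopolysaccharide, differed by 0.27 ± 0.08 (SE; limma adjusted p = 0.171). Its log2 signal was 9.59, 9.58, 9.37 and 9.55 on the control arrays and 9.80, 9.83, 9.85 and 9.69 with hydrogen water, without overlap, and its sign turned without normalization. Cd48, an anchored adhesion protein of leukocytes, differed by 0.49 ± 0.16 (SE; limma adjusted p = 0.209), with values of 6.63 to 7.06 on the control arrays and 6.96 to 7.67 with hydrogen water. Macrophages and leukocytes make much of these transcripts. The summed signal of the 4 measured Kupffer cell and macrophage markers ran from 1549 to 2238 on the control arrays and from 1701 to 2085 with hydrogen water. That of the 3 measured lymphocyte markers, of which only 1 was bright enough to be tested, ran from 56.0 to 98.5 and from 67.1 to 81.5. Both sums overlapped between groups, and their part in the values of Cd14 and Cd48 was not tested.

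**Figure D4:**
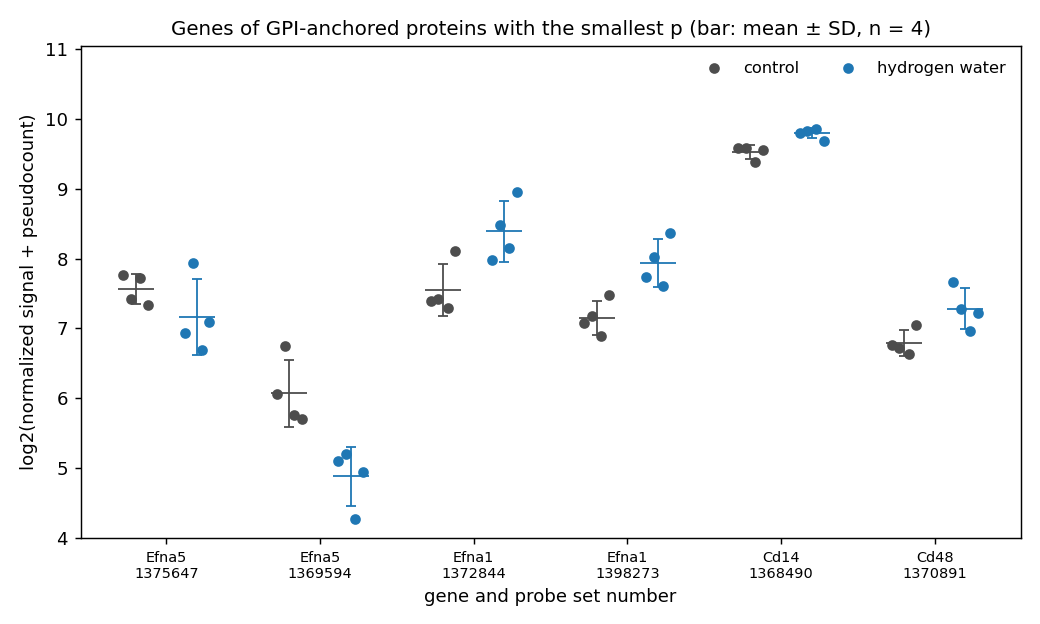
Log2(normalized signal + pseudocount) on every array for the tested probe sets of the 4 anchored-protein genes with the smallest p, controls in grey and hydrogen water in blue, bars for mean ± SD of 4 arrays. Efna5 is lower and Efna1, Cd14 and Cd48 higher on average with hydrogen water. Groups do not overlap at 3 of the 6 probe sets, whose genes were picked by smallest p. Those 3 are the only ones among 25 tested for anchored-protein genes (12.0%), against 7.48% of all tested probe sets.

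Pigu was also compared with the genes beside it on chromosome 3. Its outer end is 173 bases from that of Tp53inp2, which lies on the opposite strand and is read away from Pigu, and its other end is 160 bases from Map1lc3a. Both neighbours encode proteins of autophagosome formation. Tp53inp2 had log2 signals of 10.29, 9.93, 9.89 and 9.72 on the control arrays and 10.32, 10.51, 10.46 and 10.50 with hydrogen water at 1375517_at. The groups did not overlap, though hydrogen water array 1 lay only slightly above control array 1. The change was 0.49 ± 0.11 (SE), smaller than that of Pigu, and missed the threshold (limma adjusted p = 0.0723). Without control array 1 it was 0.61 with a limma adjusted p of 0.0218, the smallest over 22 other settings, where the largest was 0.439. Tp53inp2 passed at this probe set in 2 of those 22, of which 1 left out an array.

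The dimmer Tp53inp2 probe set, 1397568_at, differed by 0.36 ± 0.22 (SE) and its groups overlapped. Map1lc3a differed by 0.07 ± 0.11 and turned negative without normalization and with median centring. Dynlrb1, a dynein light chain gene beyond it, differed by 0.09 ± 0.08 and turned negative without normalization. Ncoa6, a nuclear receptor coactivator gene beyond Tp53inp2, differed by −0.02 ± 0.19 at its tested probe set. Ggt7 and the other Ncoa6 probe set were too dim to be tested, and Itch had no probe set with its single symbol. None of the tested neighbours passed in the main fit.

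**Figure D5:**
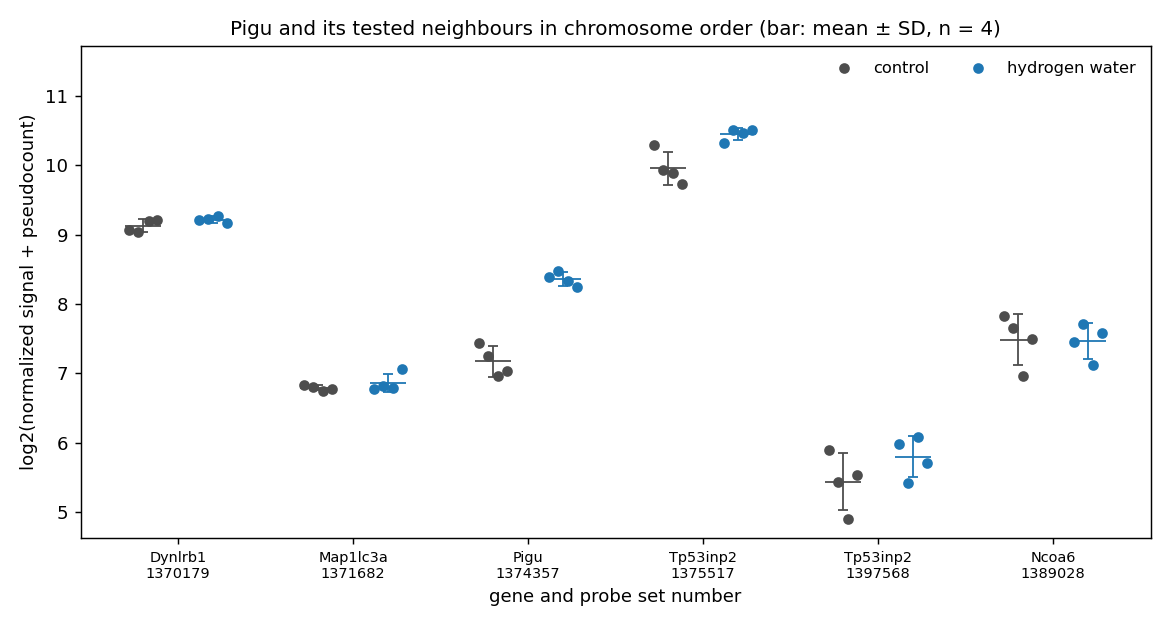
Log2(normalized signal + pseudocount) on every array for Pigu and the tested probe sets of its neighbours in chromosome order, controls in grey and hydrogen water in blue, bars for mean ± SD of 4 arrays. Pigu and Tp53inp2 1375517 are the probe sets whose groups do not overlap, and control array 1 is the highest control at both.

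Likeness to the profile of Pigu over the 8 arrays was measured by the root mean square distance of log2 values, each centred on its own mean. Only tested probe sets with a single gene symbol were ranked, so nearer profiles without a symbol can exist. The nearest were those of Cidea, at 0.14, Syne1, at 0.19 and 0.25 for its 2 nearest probe sets, Shld2, at 0.22, and Dio1, at 0.24. CIDEA is a lipid droplet protein, SYNE1 links the nucleus to the cytoskeleton, SHLD2 acts in DNA double-strand break repair and DIO1 activates thyroid hormone. Cidea had log2 signals of 7.09, 6.51, 6.50 and 6.70 on the control arrays and 7.69, 7.91, 7.91 and 7.73 with hydrogen water, so that control array 1 was its highest control, as for Pigu. The changes of these probe sets ran from 0.88 at Dio1 to 1.11 at Cidea. They were picked for their likeness to Pigu and carry no test.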

How the data were processed

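Liver RNA was converted to biotinylated cRNA for Affymetrix arrays, per the labels' protocols. The authors deposited linear-scale intensities for 31099 probe sets on 8 arrays, 4 control and 4 hydrogen water, made with MAS5 per the submitters' processing notes. Its version and scaling target, and any detection calls, were not given in the sources used here, so that dim signals and background look alike.

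The 57 control probe sets were left out. Arrays were quantile-normalized, which hides a shift of most transcripts in 1 direction. A pseudocount of 2.05 (10% of the median signal) was added before log2, so changes of dim probe sets are understated. The 15521 of 31042 probe sets with a mean at or above the median were tested with lmFit and eBayes (trend) of limma 3.58.1 in R 4.3.3, with Benjamini-Hochberg adjustment over all of them at 0.05. Changes of untested probe sets come from a fit without the filter. The number of arrays limits the precision.

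Names came from the platform annotation, and symbols of the 7 measured members matched the RefSeq table of GRCr8 by Entrez ID. Of 31042 probe sets 20826 had 1 symbol, 436 several and 9780 none. The members and gene lists were chosen with earlier results of these data known. Beyond members, the genes named are the 4 of smallest p among other pathway genes and among anchored-protein genes. The 2 of smallest p of oligosaccharyltransferase and the 3 named genes on each side of Pigu were added. So were the 5 nearest profiles among tested probe sets with a single symbol. Alternatives were other normalizations, pseudocounts and filters, no trend, array weights, a replicate block, covariates, gene means, a threshold of 0.10 and leaving out each array. Arrays with the same replicate number in the 2 groups were not treated as pairs in the main fit, and whether they were processed together is not known.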

Additional observations from a re-analysis of the deposited data

Results flagged for a closer look

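Among the 78 groups of 4 arrays checked, 6 held an array far from the other 3 by Dixon's criterion of 0.829, and chance gives about 1 in 20. Among members, Pigm on control array 2 had a log2 signal of 6.03, against 5.81 to 5.83 on the other controls. Among other genes, Cd14 on control array 3 was at 9.37, against 9.55 to 9.59. Efna1 at 1372844_at was at 8.11 on control array 4, against 7.29 to 7.42. Map1lc3a was at 7.06 on hydrogen water array 4, against 6.78 to 6.82. Syne1 was at 7.12 on control array 3 at 1370264_at, against 7.45 to 7.49, and at 4.61 on hydrogen water array 4 at 1398499_at, against 5.79 to 5.98.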

How the results depend on the processing

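Pigu was higher with hydrogen water in the 23 other settings, from 0.84 without normalization to 1.28 without control array 1. Without normalization the median of all tested probe sets shifted by −0.33 and Pigu lay 1.17 above it. The filter, trend, block, gene mean and threshold settings could not move the change of Pigu, which stayed at 1.19. Every setting reuses arrays on which Pigu was chosen, so this range is a description and no support. Without control arrays 1 to 4 and hydrogen water arrays 1 to 4 in turn, the change of Pigu ran from 1.11 to 1.28. No other member and no other pathway gene passed in any of these settings. Of the anchored-protein genes, 1 passed without normalization, 1 with median centring, 1 with the Gapdh ratio as a covariate (Efna5 each time), and 2 (Efna5 and Efna1) both with the replicate number as a block and at a threshold of 0.10. Deviations of same-numbered arrays had correlations from −0.10 to 0.19. Number 3 correlated best with its own number, and numbers 1, 2 and 4 did not. This cannot show whether arrays were paired, so the block is not read as a paired analysis. The block moved the count of probe sets that passed from 128 (53.9% higher with hydrogen water) to 181. That count was 505 without normalization (4.16% higher), 187 with median centring (29.4% higher), 64 without a trend, 12 with array brightness as a covariate (16.7% higher), 239 with the Gapdh ratio, 78 genes with gene means (42.3% higher), 353 at 0.10, and 55 to 197 when an array was left out. Gene means test fewer features, and the threshold of 0.10 is a looser cut-off on the same adjusted p-values. The cause of the other moves was not tested.

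Signs of small changes turned as follows. Without normalization they were −0.22 for Pigs, −0.29 for Pigt 1372900_at, −0.23 and −0.029 for Pigq 1388793_at and 1397753_at, −0.059 for Cd14, −0.22 for Dpm1 1382523_at, −0.14 for Dpm3, −0.23 for Dynlrb1, −0.24 for Magt1, −0.29 for Map1lc3a and −0.27 for Tmed2 1389940_at. Median centring gave −0.025 for Pigt 1372900_at, −0.028 for Map1lc3a and −0.0057 for Tmed2 1389940_at. Array weights gave 0.032 for Pigm and 0.019 for Ncoa6. With array brightness as a covariate Pigm was at 0.12, Pigq at −0.30 and −0.21, and Magt1 at −0.042. With the Gapdh ratio Pigt 1372900_at was at −0.031 and Pigq 1388793_at at −0.15. Leaving out an array moved Pigt 1379515_at between −0.15 and 0.080, Pigm between −0.23 and 0.069 and Ncoa6 between −0.19 and 0.096. Of the values that kept their sign in every setting, Pigk ran from −0.43 to −0.058, Pigc from −0.63 to −0.18, Dpm1 1377593_at from −0.48 to −0.11, Tmed2 1398824_at from −0.47 to −0.12, Tusc3 from −0.61 to −0.18, Efna5 from −1.80 to −0.96 at 1369594_at and −0.76 to −0.035 at 1375647_at, Efna1 from 0.43 to 0.89 at 1398273_at and 0.49 to 1.02 at 1372844_at, Cd48 from 0.13 to 0.60, and Tp53inp2 from 0.20 to 0.65 at 1375517_at and 0.025 to 0.52 at 1397568_at. Piga and 1 Pigq probe set were too dim for a test.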
